A study of Mus musculus with 360 samples.

Results

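The liver response to 1,4-dichlorobenzene (1,4-DCB) at 150 ppm was set against the response to its isomer 1,2-dichlorobenzene (1,2-DCB) at 250 ppm. The difference was the change from 0 ppm to 150 ppm in the 1,4-DCB series minus the change from 0 ppm to 250 ppm in the 1,2-DCB series, for left liver lobe libraries whose status label marks them as used. The rule took 26 of the 360 libraries of the study, which had 72 liver libraries, 61 of them marked as used. These 26 came from 9 control and 6 exposed animals of the 1,2-DCB series and from 7 control and 4 exposed animals of the 1,4-DCB series. All were female B6D2F1/Crl mice aged 9 weeks, killed on study day 5, and each library is 1 animal. The groups differ in the compound and its concentration alone, as far as the labels say, and each compound had 0 ppm controls of its own. The liver was also labelled at 1, 10, 30 and 100 ppm 1,2-DCB and at 1, 10, 50 and 400 ppm 1,4-DCB. No concentration above 10 ppm was shared by the isomers, so 150 and 250 ppm are neighbouring but unmatched, and a difference between them cannot be told apart from a difference in concentration. RNA was measured with TempO-Seq, in which pairs of detector oligonucleotides are ligated on a target RNA and counted by sequencing, on the mouse S1500+ panel of 3154 probes.

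The compounds are benzene rings with a pair of chlorines, which are neighbours in 1,2-DCB and face each other across the ring in 1,4-DCB. As background, 1,2-DCB is known as a rodent liver toxicant, and 1,4-DCB as an inducer of drug-metabolising enzymes and of cell division in mouse liver. Liver cells sense foreign compounds through the nuclear receptors CAR and PXR, which switch on cytochrome P450, carboxylesterase, glucuronosyltransferase and transporter genes. Reactive metabolites are sensed through NRF2, which switches on glutathione transferases and quinone reductase. Hepatocytes rarely divide in an adult mouse but can re-enter the cell cycle after injury or in response to mitogens, and injury also brings in macrophages and activates collagen-producing stellate cells.

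Total counts ran from 14.1 to 37.7 M per library, and the 1,4-DCB libraries were the deeper ones, with a median of 13.6 against 8.29 M reads in the controls once probe factors were undone that are inferred from the counts and stated in no label. The 10 hepatocyte marker probes summed to 147562 to 195377 CPM (counts scaled to the library size) at 250 ppm 1,2-DCB, below the 197882 to 322766 CPM of its controls, and to 216740 to 239288 CPM at 150 ppm 1,4-DCB, below the 251489 to 290276 CPM of its controls. The part of this lower level in the differences of other genes was not tested. Slc22a6, the kidney tubule marker tested, reached at most 1.64 CPM. On a multidimensional scaling of the libraries, the first axis placed the controls of both compounds between -1.02 and -0.30, the 150 ppm animals between 0.06 and 0.24 and the 250 ppm animals between 1.63 and 2.10. In bulk RNA, fewer cells of a type and less RNA per cell cannot be told apart. A 1,2-DCB control, animal 4, stood apart with high Lcn2 and macrophage genes, and another, animal 5, with high cell division genes. Where leaving out a single animal moved the difference of a named gene by over 1.5 times as a fold, the value without it is given beside the result.

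The change at 250 ppm 1,2-DCB reached more probes than that at 150 ppm 1,4-DCB, and of the probes that passed under both isomers 5 moved in opposite directions. Of the probes tested, 673 (25.9%) differed between the responses at an adjusted p under 0.05, 311 of them (12%) with a positive difference, meaning a higher value under 1,4-DCB relative to control, and 362 (13.9%) with a negative one; at an unadjusted p under 0.05 there were 915 (35.2%). Within each series, 1294 probes (49.8%) passed at 250 ppm 1,2-DCB, 654 up (25.1%) and 640 down (24.6%), and 5.96% passed at 150 ppm 1,4-DCB, 5.07% up and 0.884%, or 23 probes, down. Among the 673 differences, 274 probes fell and 269 rose at 250 ppm 1,2-DCB without passing at 150 ppm 1,4-DCB. A further 86 rose under both isomers with the larger rise at 250 ppm 1,2-DCB, and 13 fell under both. The remaining ones were few: 5 fell under 1,2-DCB and rose under 1,4-DCB, 5 passed at 150 ppm only, 1 (Ces2c) rose under both with the larger rise under 1,4-DCB, and 20 passed in neither series. The median size of the called differences was 0.905 on the log2 scale, with 302 of at least 1. The median difference over all probes was 0.01.

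**Figure D1:**
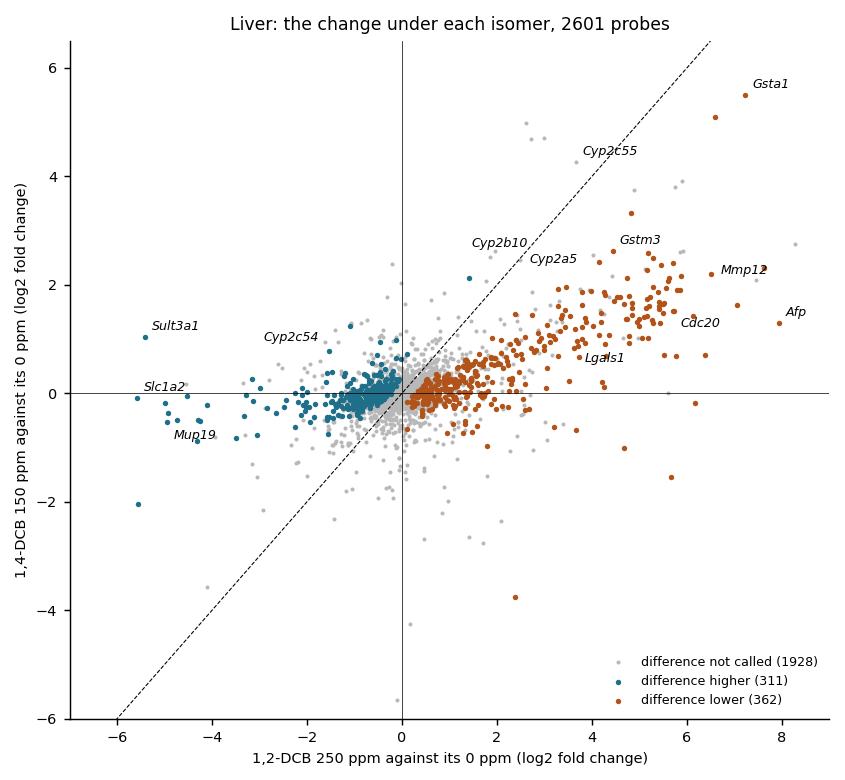
Log2 fold change at 250 ppm 1,2-DCB (x axis) against that at 150 ppm 1,4-DCB (y axis) for all probes tested, each against its own 0 ppm controls; colours mark the 311 higher and 362 lower called differences and the dashed line marks equal change. Most coloured points lie near the horizontal zero line or below the dashed line on the right, and Cyp2c54 is among the few in the upper left.

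Cell division genes held the widest block of differences. Of 35 probes of the mitosis list (31 genes), 31 differed, all lower under 1,4-DCB, and the median difference was -3.68; over all probes 13.9% were lower. At 250 ppm 1,2-DCB 33 of the 35 rose, with a median log2 change of 5.16, and at 150 ppm 1,4-DCB 6 rose, with a median of 1.43. The 6 were Birc5, Stmn1, Kif20a, Top2a, Cdk1 and Ttk. Over all probes 25.1% rose at 250 ppm and 5.07% at 150 ppm. The 4 of the list without a called difference were Cdc25b (-1.83), Spag5 (-2.81), further probes of Ccna2 (0.52) and Cks1b (0.21). In the promoters of late cell cycle genes, background knowledge places a CHR element, with the letters TTTGAA, downstream of CCAAT boxes. The windows of 3 list members with both are shown, because their transcripts move together here. The windows, from RefSeq on build GRCm38.p6, run from 250 bases before to 50 after the start; they lie at chr4:118437294-118437593 on the minus strand, chr9:70421505-70421804 on the minus strand and chr7:122159185-122159484 on the plus strand, read 5′ to 3′ along the gene, with matches to these elements in capitals.
Cdc20: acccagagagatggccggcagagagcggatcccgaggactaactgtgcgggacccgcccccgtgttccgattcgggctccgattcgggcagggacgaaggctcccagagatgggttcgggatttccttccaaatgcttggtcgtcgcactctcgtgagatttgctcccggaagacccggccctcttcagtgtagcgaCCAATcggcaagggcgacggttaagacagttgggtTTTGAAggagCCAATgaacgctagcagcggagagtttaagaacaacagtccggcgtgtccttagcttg
Ccnb2: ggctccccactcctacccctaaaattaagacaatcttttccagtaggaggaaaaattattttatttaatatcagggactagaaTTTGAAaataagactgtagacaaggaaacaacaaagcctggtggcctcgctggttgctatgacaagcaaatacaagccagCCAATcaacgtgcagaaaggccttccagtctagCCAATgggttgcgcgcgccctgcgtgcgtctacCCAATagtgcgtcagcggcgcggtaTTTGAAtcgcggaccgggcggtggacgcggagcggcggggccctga
Plk1: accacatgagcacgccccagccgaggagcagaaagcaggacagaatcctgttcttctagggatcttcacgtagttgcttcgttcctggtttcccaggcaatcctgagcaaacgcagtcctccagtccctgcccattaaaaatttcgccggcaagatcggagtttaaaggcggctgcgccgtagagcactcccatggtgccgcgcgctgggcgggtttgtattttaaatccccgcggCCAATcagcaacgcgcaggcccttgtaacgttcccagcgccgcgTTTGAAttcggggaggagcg

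On either strand, TTTGAA was found in 22 of the 28 windows that matched 26 of the 31 mitosis genes (78.6%), against 17.9% of all 32851 promoter windows. CCAAT, which does not overlap TTTGAA, was found in 25 of the 28, against 37.4% of all windows. In the 31 windows of DNA replication genes, TTTGAA was found in 4 (12.9%) and CCAAT in 17 (54.8%). A match is a description of the letters and not evidence of binding.

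Cdc20, the activator of the anaphase-promoting complex, stood at 0.957 to 14.7 CPM in the 9 controls of 1,2-DCB (median 2.30) and at 56.7 to 286 CPM at 250 ppm (median 202). In the 1,4-DCB series it stood at 1.12 to 18.7 CPM in the controls (median 3.58) and at 16.5, 12.5, 31.7 and 14.4 CPM in the 4 animals at 150 ppm. Every 250 ppm animal was above all 1,2-DCB controls and above all 150 ppm animals, while the 150 ppm animals overlapped their controls. The difference for Cdc20 was -4.20 ± 1.00 on the log2 scale (SE, adjusted p = 0.00101), and -4.91 without control animal 5. Ccnb2, the cyclin that partners Cdk1, differed by -3.85 ± 0.88 and Plk1, a kinase of mitotic entry, by -3.81 ± 0.88. Ccnb1, another mitotic cyclin, differed by -4.69 ± 1.06 (-5.57 without control animal 5), Nusap1, a spindle protein, by -4.83 ± 1.03, and the helicase Pif1 by -5.67 ± 1.14. Birc5 (survivin), a member of the chromosomal passenger complex, passed in both series, with a log2 change of 5.15 at 250 ppm and 1.43 at 150 ppm, and differed by -3.73 ± 0.64.

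DNA replication genes showed the same order of the isomers with smaller differences. Of 35 probes (31 genes), 22 differed, all lower under 1,4-DCB, with a median of -1.49. Here 33 probes rose at 250 ppm 1,2-DCB (median 2.29) and 13 also rose at 150 ppm 1,4-DCB (median over the list 0.79), among them Pcna, Fen1, Prim1, Uhrf1, Mcm6 and Chek1. Over all probes 25.1% rose at 250 ppm and 5.07% at 150 ppm. Mcm2, a subunit of the replicative helicase, lay between 4.54 and 6.31 CPM in the 1,2-DCB controls (median 5.57) and between 27.7 and 67.3 CPM at 250 ppm (median 39.1). Its 1,4-DCB controls lay between 4.52 and 8.82 CPM (median 6.11), and the 150 ppm animals at 20.02, 14.4, 11.1 and 15.7 CPM. Both exposed groups were above all of their own controls, and no 150 ppm animal reached the 250 ppm range. Mcm2 rose by 3.06 ± 0.19 at 250 ppm and by 1.25 ± 0.21 at 150 ppm, a difference of -1.81 ± 0.29 (adjusted p = 2.65e-06). The ribonucleotide reductase subunits, which make DNA precursors, followed the same order, with differences of -2.72 ± 0.39 for Rrm2 and -1.71 ± 0.18 for Rrm1. Phlda3, a p53 target, rose by 3.38 and 1.45 and differed by -1.92 ± 0.52. The p53 list as a whole held 3 lower and 1 higher of 22 probes, where 13.9% of all probes were lower and 12% higher.

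**Figure D2:**
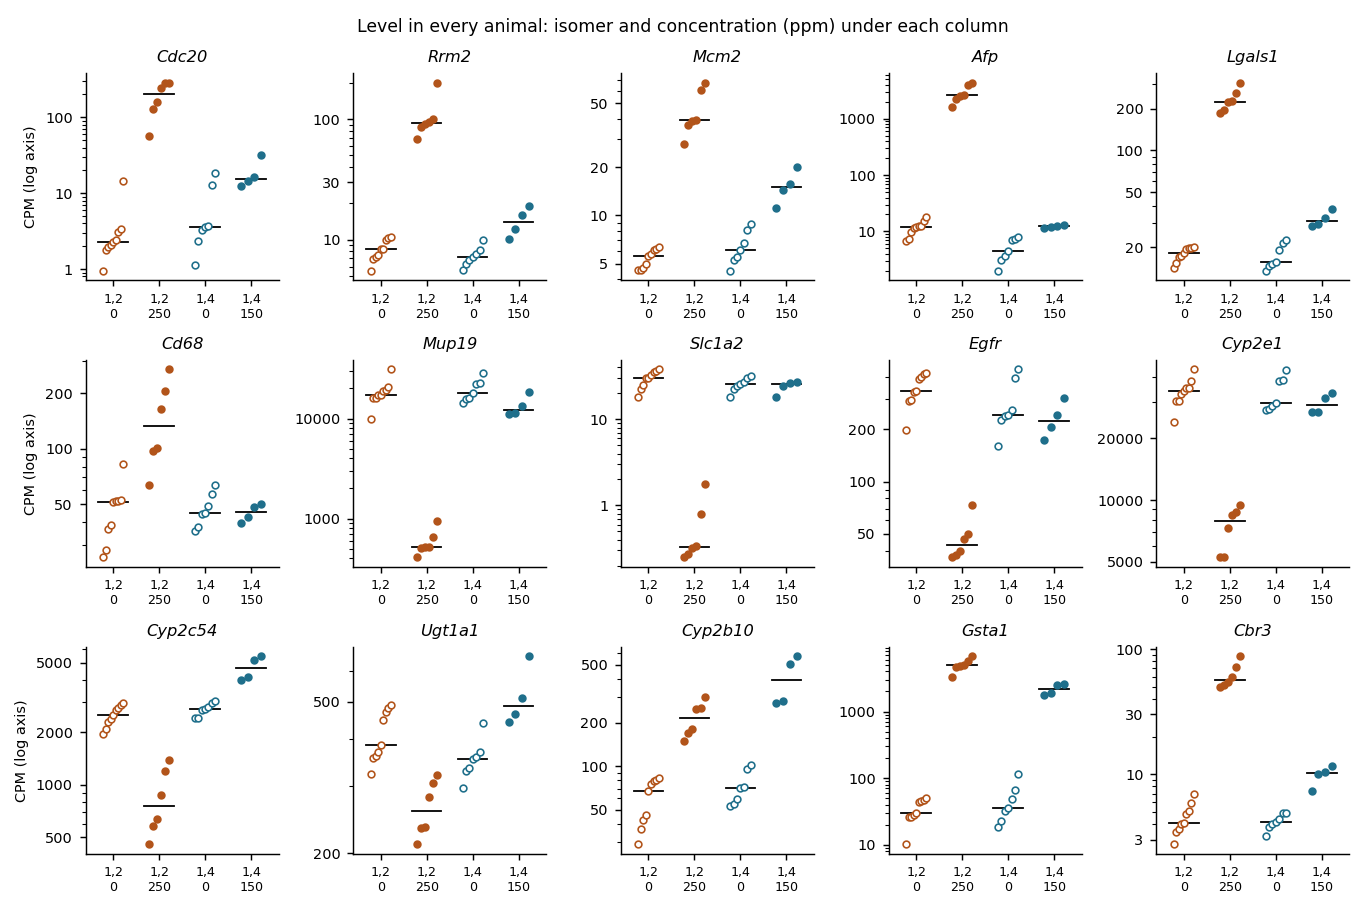
CPM of 15 genes in each of the 26 animals on log axes, by isomer and concentration in ppm; open points are 0 ppm controls, filled points exposed animals and bars medians. For Cdc20, Afp, Lgals1, Mup19 and Slc1a2 the 250 ppm animals stand clear of every other group, while for Cyp2c54 and Ugt1a1 the exposed groups lie on opposite sides of their controls.

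Among the probes named by size, the most negative difference was that of Afp, alpha-fetoprotein, a serum protein of fetal liver that adult hepatocytes scarcely make. It was at 6.71 to 17.7 CPM in the 1,2-DCB controls (median 12.1) and at 1617 to 4373 CPM at 250 ppm (median 2602), a 245-fold rise. In the other series it was at 2.02 to 7.94 CPM in the controls (median 4.45) and at 12.8, 12.7, 11.8 and 11.6 CPM at 150 ppm. The 150 ppm animals were thus above their own controls but inside the range of the 1,2-DCB controls, and no 250 ppm animal overlapped any other group. The difference was -6.64 ± 0.61 (adjusted p = 6.54e-13). Lgals1, galectin-1, rose in both series, from a median of 18.2 to 224 CPM (186 to 309) at 250 ppm and from a median of 15.7 to 29.5, 32.6, 28.3 and 37.8 CPM at 150 ppm. The groups did not overlap in either series, and the difference was -2.82 ± 0.23. The calcium-binding proteins S100a6 and S100a11 rose at 250 ppm 1,2-DCB (4.21 and 3.51) and differed by -3.99 ± 0.46 and -3.28 ± 0.29; their changes at 150 ppm were 0.22 each. In the list of cytoskeletal and injury genes, 7 of 14 probes were lower and 0 higher, the other called ones being Tubb6, S100a4, Vim and Anxa5. Over all probes 13.9% were lower and 12% higher.

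Macrophage and stellate cell genes rose at 250 ppm 1,2-DCB and did not pass at 150 ppm 1,4-DCB. Of all probes, 25.1% rose at 250 ppm and 5.07% at 150 ppm, and 13.9% were lower and 12% higher in the difference. Of 12 macrophage probes (10 of the 21 listed genes are on the panel), 7 were lower in the difference and 0 higher, 7 rose at 250 ppm and 0 at 150 ppm. Their summed level was 605 to 2479.6 CPM at 250 ppm, 664 to 748 CPM at 150 ppm, 686 to 2671 CPM in the 1,2-DCB controls and 701 to 894 CPM in the 1,4-DCB controls. Control animal 4 set that upper bound, and without it 9 of the 12 probes were lower. Cd68, a lysosomal protein of macrophages, ran from 63.8 to 269 CPM at 250 ppm (median 132.6) against 25.8 to 82.6 CPM in its controls (median 51.4). At 150 ppm it was 42.6, 50.4, 48.2 and 39.3 CPM against 35.8 to 63.4 CPM in its controls (median 44.9). The 250 ppm animals overlapped their controls at the low end and lay above every 150 ppm animal, and the difference was -1.75 ± 0.32 (adjusted p = 2.02e-05). Mmp12, macrophage elastase, spread widely within the 250 ppm group, up to 40.0 CPM (median 22.99), and differed by -4.31 ± 1.05, or by -5.33 without animal 402 of the 150 ppm group; at 150 ppm it was 0.475, 3.02, 0.966 and 0.113 CPM. Ccr2, the receptor that recruits monocytes, differed by -2.33 ± 0.54, and Chil3, a chitinase-like protein of activated macrophages, by -5.67 ± 1.34, or by -7.36 without control animal 4. C1qa, C1qb, C1qc and Csf1r, which resident macrophages also express, had differences between -0.24 and 0.20, none of them called.

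Of 9 stellate cell and fibroblast probes, 4 were lower in the difference, 7 rose at 250 ppm and 0 passed at 150 ppm. The shares over all probes were 13.9%, 25.1% and 5.96%. Col1a1, a chain of type I collagen, differed by -1.89 ± 0.51 and Timp1, an inhibitor of matrix proteases, by -2.61 ± 0.83, with Lum and Col3a1 as the other called members. Acta2 and Tagln, the contractile genes of activated stellate cells, differed by -0.25 and -0.08 and were not called. The summed stellate level was 84.7 to 414.85 CPM at 250 ppm and 88.7 to 142.7 CPM at 150 ppm. The part of these cell types in the differences of other genes was not tested. Lcn2, lipocalin-2, which both neutrophils and injured hepatocytes make, differed by -2.18 ± 0.67, and by -3.45 without control animal 4, where it stood at 2022 CPM against at most 205 CPM in the other 8 controls of its series. The other neutrophil genes tested, S100a8, S100a9, Camp and Mmp9, had no called difference. None of the 8 lymphocyte probes had a called difference in edgeR. Cd74, the invariant chain of antigen presentation, went the other way: it was at 78.2 to 316 CPM at 250 ppm (median 164), below all of its controls, and at 500.3, 534, 468 and 395 CPM at 150 ppm, within the control range. Its difference was 1.85 ± 0.34, and 1.58 without control animal 4. Of 5 endothelial probes 3, for Pecam1, Kdr and Tek, were higher, by 0.73, 0.46 and 0.47, where 12% of all probes were higher.

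**Figure D3:**
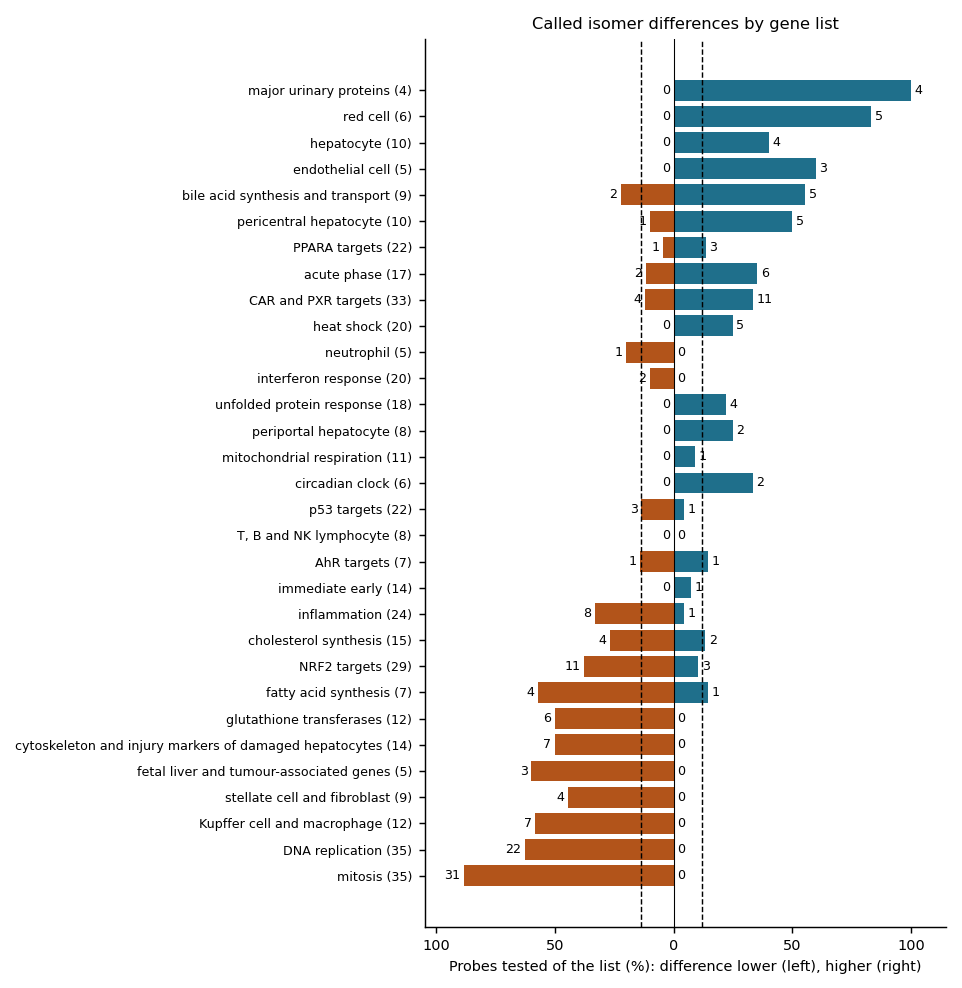
Share of the tested probes of each gene list (number tested in brackets) with a called isomer difference, lower to the left and higher to the right, with the number of probes at each bar end; lists are ordered by median difference and dashed lines mark the shares over all probes, 13.9% lower and 12% higher. Mitosis stands at 31 of 35 lower and red cell genes at 5 of 6 higher.

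Over all probes 24.6% fell at 250 ppm 1,2-DCB and 0.884% at 150 ppm 1,4-DCB. Of the 10 probes of the hepatocyte list, 7 fell at 250 ppm and 0 passed at 150 ppm. In the difference 4 were higher, for Fga, F2, Tdo2 and Fgb, and 0 with all liver libraries. The called Tdo2 probe (1.09) was the one with fewer counts, and its other probe, at 0.41, was not called. The main probes of Ttr (0.11), Apoa1 (0.17) and Apoc3 (0.04), which carry hormone and lipid in plasma, were not called either. All 4 probes of the major urinary protein list, which are secreted pheromone carriers, were higher in the difference, with a median of 4.02 where 12% of all probes were higher. Mup19 was at 9866 to 30921 CPM in the 1,2-DCB controls (median 17165) and at 409 to 945 CPM at 250 ppm (median 521). In the 1,4-DCB series it was at 14167 to 28651 CPM in the controls (median 18085) and at 18417, 11049, 11294 and 13310.0 CPM at 150 ppm. The 250 ppm animals were far below every other group, and the 150 ppm animals overlapped their controls. The difference was 4.42 ± 0.27 (adjusted p = 6.18e-19), with 4.25 ± 0.32 for Mup15 and 3.80 ± 0.27 for Mup13. These genes are near copies, and reads or probes may be shared between them: the RefSeq windows of Mup15 (chr4:61439655-61439954, minus strand, GRCm38.p6) and Mup19 (chr4:61782175-61782474, minus strand) share a run of 275 of 300 letters, shown here because it illustrates how alike the members are, with the CCAAT match of Mup15 in capitals; the window of Mup19 holds no match.
Mup15: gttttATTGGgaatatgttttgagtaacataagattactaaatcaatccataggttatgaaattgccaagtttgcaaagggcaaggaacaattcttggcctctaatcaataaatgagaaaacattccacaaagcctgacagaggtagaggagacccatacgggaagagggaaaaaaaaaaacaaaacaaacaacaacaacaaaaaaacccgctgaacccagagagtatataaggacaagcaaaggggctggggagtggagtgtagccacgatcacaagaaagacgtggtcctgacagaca
Mup19: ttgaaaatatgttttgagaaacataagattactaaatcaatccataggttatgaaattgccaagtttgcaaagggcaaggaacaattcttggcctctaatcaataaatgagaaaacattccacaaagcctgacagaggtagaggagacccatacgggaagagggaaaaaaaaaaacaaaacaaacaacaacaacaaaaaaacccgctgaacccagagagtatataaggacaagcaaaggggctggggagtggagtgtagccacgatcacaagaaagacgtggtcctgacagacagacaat

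Slc1a2, a glutamate transporter of the hepatocytes around the central vein, was at 18.1 to 37.9 CPM in the 1,2-DCB controls (median 30.0) and at 0.249 to 1.75 CPM at 250 ppm (median 0.331). At 150 ppm 1,4-DCB it was 27.4, 26.3, 18.1 and 24.7 CPM, within its controls at 18.3 to 31.4 CPM (median 25.9) but for the animal at 18.1. Its difference was 5.50 ± 0.36 (adjusted p = 2.0e-18). Cyp2e1, a P450 of the same zone that oxidises small solvents, fell to 5250.1 to 9487 CPM at 250 ppm from 24025 to 43440.0 CPM in its controls, and was 31487, 33421, 26949 and 26891 CPM at 150 ppm. The 250 ppm animals lay below all others, and the difference was 2.02 ± 0.21. Glul, the glutamine synthetase of the last ring of central hepatocytes, differed by 1.73, and in the whole list of that zone 5 of 10 probes were higher and 1, Cyp7a1, lower. Over all probes 12% were higher and 13.9% lower. Of 8 periportal probes 2 were higher, G6pc (2.29 ± 0.49), the last step of glucose release, and Hsd17b6 (1.17), while Cyp2f2, Ass1 and Sds differed by 0.10, -0.30 and -0.34 and were not called.

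Bile acid synthesis genes moved in opposite directions at 250 ppm 1,2-DCB. Cyp8b1, the sterol 12-alpha-hydroxylase, fell by 2.65 and Cyp7a1, the rate-limiting enzyme of the classical pathway, rose by 1.46, and neither passed at 150 ppm 1,4-DCB. Their differences were 2.29 ± 0.24 and -2.18 ± 0.59. Over the 9 probes of the list 5 were higher, with the uptake carriers Slco1b2 and Slc10a1 and the export pump Abcb11 among them, and 2 lower. The shares over all probes, for this list and those that follow, were 12% higher and 13.9% lower. Elovl3, a fatty acid elongase, differed by 3.90 ± 0.55, Fabp1, the liver fatty acid carrier, by 1.12 ± 0.18, and Egfr, the epidermal growth factor receptor, by 2.57 ± 0.36. Egfr was at 36.6 to 73.4 CPM at 250 ppm (median 43.2) against 198 to 420.4 CPM in its controls, and at 207, 172, 304 and 242 CPM at 150 ppm, so that the exposed groups did not overlap. In the fatty acid synthesis list 4 of 7 probes were lower, for Acly, Fasn and Elovl6, and 1, Elovl5, was higher (0.69); the 4 became 1 without animal 501 of the 250 ppm group. In cholesterol synthesis 4 of 15 were lower and 2 higher, and 7 lower and 1 higher without control animal 4. Among 17 acute phase probes 6 were higher, including the fibrinogen chains Fga, Fgb and Fgg, Saa2, Crp and C3, and 2 lower, Lcn2 and Hp. Hspa1b, an inducible Hsp70, differed by 2.32 ± 0.46, with 5 of 20 heat shock probes higher (3 without animal 401 of the 150 ppm group) and 0 lower.

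Red cell transcripts, which come with blood in the tissue, were lower at 250 ppm 1,2-DCB. Hba-a1, an alpha-globin gene, was at 1437 to 5297 CPM in the controls (median 2726), at 58.8 to 802 CPM at 250 ppm (median 120.1), and at 2771, 2188, 4459.6 and 2262 CPM at 150 ppm. The 250 ppm animals lay below all others, and the difference was 3.25 ± 0.64, with 3.10 ± 0.65 for Hbb-bs, beta-globin. The summed red cell level was 237 to 3504 CPM at 250 ppm against 5293 to 22945 CPM over the other 3 groups. Its part in the differences of other genes was not tested. Sult3a1, a female-biased sulfotransferase, differed by 6.45 ± 0.93, or by 5.72 without animal 401 of the 150 ppm group, but its controls differed as well. They stood at 354 to 11287 CPM in the 1,2-DCB series (median 6286) and at 174 to 1143 CPM in the 1,4-DCB series (median 454), a control difference of -3.37 (adjusted p = 0.0007034). At 250 ppm it was 79.2 to 208 CPM and at 150 ppm 2382, 369.8, 546 and 1043 CPM, and the exposed groups did not overlap.

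Genes that handle foreign compounds included all 5 probes that fell at 250 ppm 1,2-DCB and rose at 150 ppm 1,4-DCB, 4 of which are described. Cyp2c54, a P450 of the Cyp2c family, was at 1969.5 to 2956 CPM in the 1,2-DCB controls (median 2525) and at 457 to 1397 CPM at 250 ppm (median 756). In the 1,4-DCB series it was at 2401 to 3019.7 CPM in the controls (median 2735) and at 5166, 5446, 4152 and 3977 CPM at 150 ppm. All 250 ppm animals were below all controls, and all 150 ppm animals above them. The log2 changes were -1.54 ± 0.14 and 0.79 ± 0.16, a difference of 2.33 ± 0.21 (adjusted p = 3.36e-13). Ugt1a1, the bilirubin glucuronosyltransferase, changed by -0.63 and 0.55, from a median of 384 CPM to 211 to 321 CPM at 250 ppm and from a median of 354 CPM to 463, 511, 442 and 657 CPM at 150 ppm. Neither exposed group of Ugt1a1 overlapped its own controls, by a narrow margin in both series, and the difference was 1.18 ± 0.15. The carboxylesterase Ces2a differed by 0.98 ± 0.15 and the sulfotransferase Sult1b1 by 0.86 ± 0.12.

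Over the 33 probes (28 genes) of the CAR and PXR target list, 11 were higher and 4 lower in the difference, with a median of 0.31. Over all probes 12% were higher and 13.9% lower. Within each series, 25.1% of all probes rose and 24.6% fell at 250 ppm, and 5.07% rose and 0.884% fell at 150 ppm. The list rose at 14 probes in each series, but 10 of its probes fell at 250 ppm 1,2-DCB and 1, Nr1i3, at 150 ppm 1,4-DCB. Nr1i3 encodes CAR itself and fell by 1.53 and 0.44 at this probe. Its other probe, with more counts, fell by 1.58 at 250 ppm, and its change of -0.44 at 150 ppm did not pass. Cyp3a11, a main mouse P450 of drug oxidation, changed by -0.77 ± 0.15 at 250 ppm and by 0.14 ± 0.18 at 150 ppm, a difference of 0.91 ± 0.23, and Cyp3a41a and Cyp3a44 had the same order (1.34 and 1.87). Cyp2b10, the usual marker of CAR, rose from 28.9 to 82.5 CPM (median 67.6) to 148.7 to 298 CPM (median 214) at 250 ppm, and from 52.9 to 102 CPM (median 70.7) to 510.3, 573, 272 and 282 CPM at 150 ppm. Its log2 rise was 1.85 ± 0.22 and 2.50 ± 0.26, a difference of 0.65 with a 95% interval of -0.04 to 1.35 (adjusted p = 0.173), so at these concentrations no difference was called, and one of up to 1.35 is within the interval. Ces2c, a carboxylesterase, was the probe with the larger rise under 1,4-DCB, at 401, 388, 281 and 307 CPM against 179.9 to 277 CPM at 250 ppm, and the difference was 0.71 ± 0.21 (adjusted p = 0.00789). The lower ones were Abcc4, Gstm2, Abcb1a and Por; Abcc4, a basolateral export pump, differed by -1.73 ± 0.63, a call lost when any of 8 single libraries was left out.

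Among NRF2 target genes, as over all probes (25.1% against 5.07%), more probes rose at 250 ppm 1,2-DCB than at 150 ppm 1,4-DCB. Of 29 probes, 19 rose and 3 fell at 250 ppm, 13 rose and 0 fell at 150 ppm, and in the difference 11 were lower and 3 higher, with a median of -0.52. Of 12 glutathione transferase probes 6 were lower (2 with all liver libraries) and 0 higher. Over all probes 13.9% were lower and 12% higher in the difference, and 24.6% fell at 250 ppm and 0.884% at 150 ppm. Gsta1, an alpha-class transferase, rose from 10.2 to 49.9 CPM (median 30.0) to 3340.4 to 6723 CPM (median 4943) at 250 ppm. At 150 ppm it rose from 18.4 to 116.8 CPM (median 36.2) to 2581, 2525, 1890.2 and 1741 CPM. All exposed animals were far above all controls, and every 150 ppm animal was below every 250 ppm animal. The log2 rises of 7.22 ± 0.37 and 5.50 ± 0.40 differed by -1.72 ± 0.49 (adjusted p = 0.00606). Cbr3, a carbonyl reductase, rose by 3.78 and 1.22 and had a larger difference, -2.57 ± 0.26, with 11.5, 10.0, 10.4 and 7.31 CPM at 150 ppm against 50.0 to 87.4 CPM at 250 ppm. Nqo1, the quinone reductase, differed by -1.11 ± 0.24, Gstm3 by -1.82 ± 0.29, and Gstp1, the pi-class transferase, by -1.30 ± 0.28. G6pdx, which supplies NADPH, rose at 250 ppm (1.59) and had a change of -0.21 that did not pass at 150 ppm, a difference of -1.80 ± 0.27. Sqstm1, Gclc and Akr7a5 were the 3 higher probes (1 without animal 402 of the 150 ppm group); at 250 ppm Sqstm1 fell by 0.78, Akr7a5 by 0.25 and Osgin1 by 1.54, while Hmox1, Gclm and Txnrd1 passed in neither series. The letters TGACNNNGC, the core of the element that NRF2 binds, were found in 8 of 27 promoter windows that matched 24 of the 28 listed genes on the panel (29.6%), against 12.4% of all windows.

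A further set rose in both series with no called difference. Of the probes that passed in both series in the same direction, 39 had no called difference, 32 that rose and 7 that fell. Cyp2a5, a P450 of the Cyp2a family, rose from a median of 849 to 5036 CPM at 250 ppm (2548 to 7704) and from a median of 955 to 7432, 7464, 4800.2 and 3934 CPM at 150 ppm. The exposed groups overlapped, with rises of 2.49 and 2.46 and a 95% interval of the difference from -0.91 to 0.85. Ephx1, microsomal epoxide hydrolase, rose by 1.16 and 1.06, with an interval of -0.37 to 0.18, and Cbr1, a carbonyl reductase, by 1.03 and 0.74, with an interval of -0.81 to 0.22. Cyp2c29 rose by 1.76 and 2.07, and the interval ran from -0.20 to 0.83. Cyp2c55 rose from a median of 14.6 CPM to 90.5 to 295 CPM at 250 ppm and from a median of 27.7 CPM to 725, 678, 519 and 580.3 CPM at 150 ppm. The levels of the exposed groups did not overlap, but the controls differed too (1.16, adjusted p = 0.009927), and the difference of the rises was 0.61 with an interval of -0.21 to 1.43. Across all probes the 95% interval lay within 1 of 0 on the log2 scale for 1324 and within 0.5 for 531.

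Changes that passed at 150 ppm 1,4-DCB and not at 250 ppm 1,2-DCB were rare, 11 probes, of which 5 had a called difference. These were Abcc3, Cyp1a2, Orm3, Gnpda1 and Igf2bp2; Abcc3, Orm3 and Gnpda1 are named because they belong to these 5 and were chosen after their values were seen. Cyp1a2, a P450 of the central zone and a target of the aryl hydrocarbon receptor AhR, was at 394, 372, 343 and 428 CPM at 150 ppm, above its controls (212 to 267 CPM) and above the 250 ppm animals (173 to 264 CPM). Its difference was 0.62 ± 0.14 (adjusted p = 0.00042). Cyp1a1, the classical AhR target, had the opposite order, 2.36 to 9.17 CPM at 250 ppm against 0.264 to 0.731 CPM at 150 ppm, a difference of -2.90 ± 0.77. Abcc3, a basolateral exporter of conjugates, rose to 50.4, 51.2, 48.0 and 43.2 CPM from 26.1 to 37.8 CPM, and differed by 0.65 ± 0.15. Gnpda1, glucosamine-6-phosphate deaminase, differed by 0.78 ± 0.20, with all 4 exposed animals above their controls. Orm3, an orosomucoid (1.10 ± 0.37), and Igf2bp2, an RNA-binding protein that fell at 150 ppm (-0.75 ± 0.26), overlapped between groups, and each lost its call when any of several single libraries was left out, 3 for Orm3 and 4 for Igf2bp2.

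The same 150 ppm animals were set against 100 ppm 1,2-DCB, and the same 250 ppm animals against 400 ppm 1,4-DCB; these comparisons share controls and exposed animals with the main one, so their values are given side by side only. Against 100 ppm 1,2-DCB, 11 probes (0.423%) differed by edgeR, 8 higher (0.308%) and 3 lower (0.115%), with 195 (7.50%) at an unadjusted p under 0.05. Of the 11, Cyp2c29 (1.46), Cyp2c55 (2.42), Cyp2b10 (1.67), Ces2c (1.00), Mup19 (1.28), Mup13 (1.14) and Gm2083 (1.51), a predicted gene, were higher, as was glutathione reductase, Gsr (0.45), and Lgals1 (-0.95), Ces2e (-0.64) and Ttr (-0.50) were lower. Cyp2b10, not called against 250 ppm, differed against 100 ppm (adjusted p = 0.008007) and between 400 and 250 ppm (2.44 ± 0.34). Between 400 ppm 1,4-DCB and 250 ppm 1,2-DCB, 447 probes (17.2%) differed, 238 higher (9.15%) and 209 lower (8.04%). For Afp the difference was -6.64 at 150 against 250 ppm, -5.18 at 400 against 250 ppm and 0.39 at 150 against 100 ppm. For Mcm2 these values were -1.81, -0.95 and 0.10, and for Gsta1 -1.72, 0.16 and 0.09, while Mup19 stood at 4.42, 4.16 and 1.28. Cyp2c54 stood at 2.33, 2.76 and 0.58, and Cbr3 at -2.57, 0.69 and -0.19, with opposite signs at the pairs that include 250 ppm. In the mitosis list 31 of 35 probes were lower at 150 against 250 ppm, 7 at 400 against 250 ppm (8.04% of all probes lower) and 0 at 150 against 100 ppm. In the list of CAR and PXR targets, 11 of 33 probes were higher at 150 against 250 ppm, 13 at 400 against 250 ppm and 4 at 150 against 100 ppm. Of 22 PPARA target probes, which serve fatty acid oxidation, 3 were higher at 150 and 11 at 400 against 250 ppm. The shares over all probes were 12% higher at 150 and 9.15% at 400 against 250 ppm, and 0.308% at 150 against 100 ppm.

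**Figure D4:**
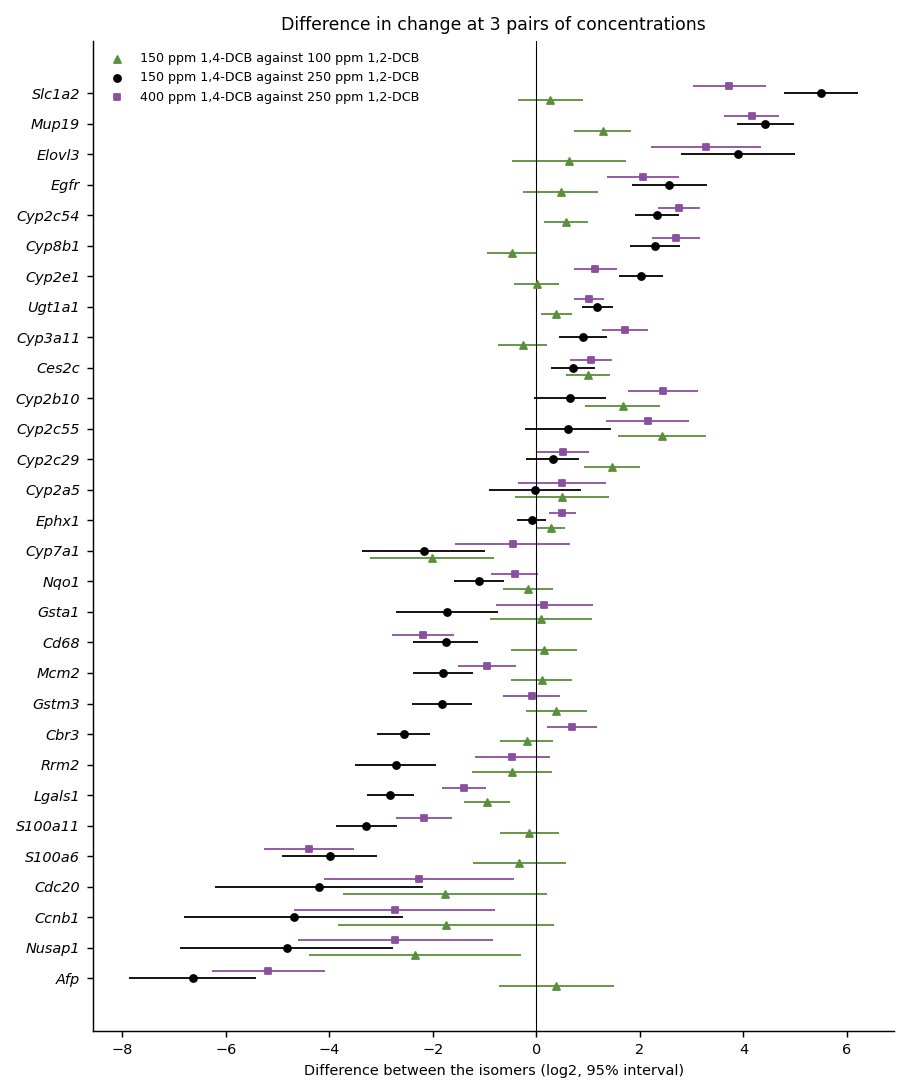
Isomer difference (log2, with 95% interval) of 30 genes at 150 against 100 ppm, 150 against 250 ppm and 400 against 250 ppm of 1,4-DCB and 1,2-DCB, which share animals. For Afp the values are 0.39, -6.64 and -5.18, and most genes lie nearest 0 at 150 against 100 ppm.

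The level of 8 genes over all labelled concentrations placed the 150 and 250 ppm groups within each series. Mean Mup19 was 18464 CPM in the 1,2-DCB controls, 5231 CPM at 100 ppm and 594 CPM at 250 ppm, and it was 13518 CPM at 150 ppm and 11281 CPM at 400 ppm 1,4-DCB. Mean Afp was 22.1 CPM at 100 ppm and 2888 CPM at 250 ppm 1,2-DCB, and 12.2 CPM at 150 ppm and 33.7 CPM at 400 ppm 1,4-DCB. Mean Cyp2c54 was 3815 CPM at 30 ppm 1,2-DCB, above the 2501 CPM of its controls, and 859 CPM at 250 ppm, while under 1,4-DCB it was 2838, 4685 and 6296 CPM at 50, 150 and 400 ppm. Mean Gsta1 was 1434 CPM at 100 ppm and 5045 CPM at 250 ppm 1,2-DCB, and 2185 CPM at 150 ppm and 8034 CPM at 400 ppm 1,4-DCB, so the 150 ppm group lay between the upper pair of 1,2-DCB groups. Mean Cdc20 at 50 ppm 1,4-DCB, 35.6 CPM, was above the 18.8 CPM at 150 ppm, so its group means had no single order over concentration.

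**Figure D5:**
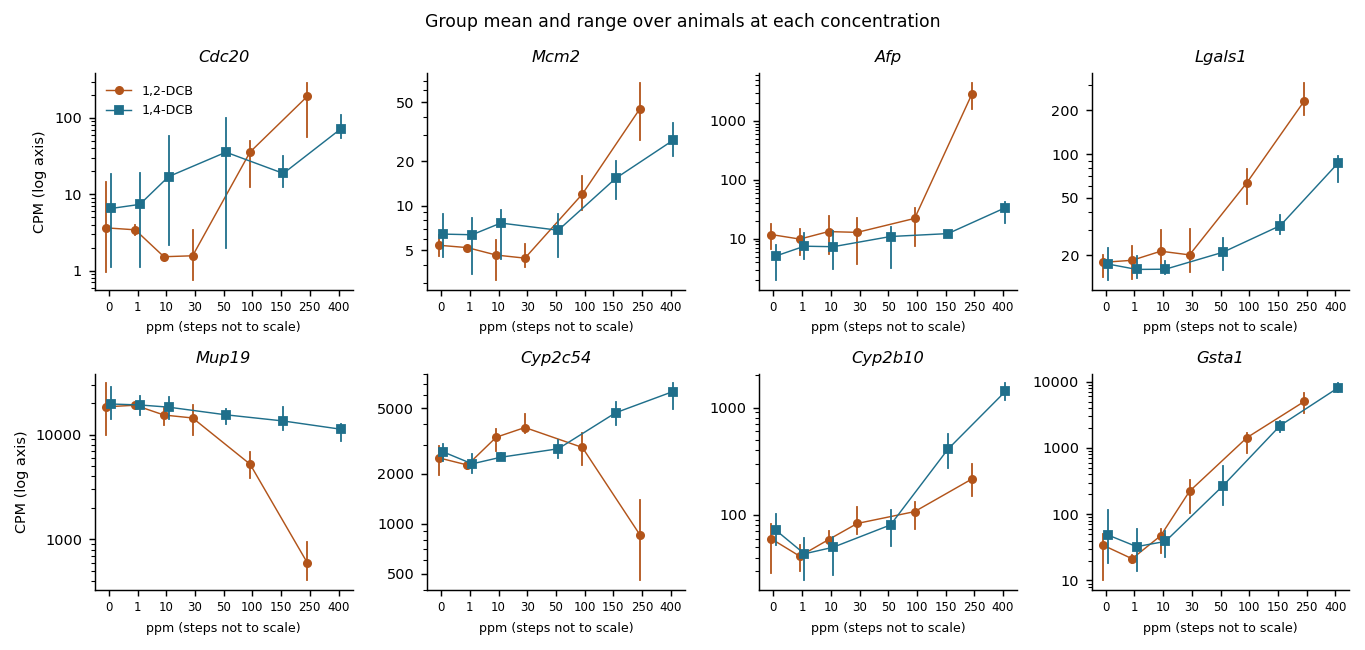
Group mean CPM (points) and range over animals (vertical lines) of 8 genes on log axes at each labelled concentration in ppm, the 1,2-DCB series in brown circles and the 1,4-DCB series in blue squares; the steps of the x axis are not to scale. Afp and Mup19 part between the series at 250 ppm 1,2-DCB, and Cyp2b10 is higher at 150 and 400 ppm 1,4-DCB.

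The controls of the series differed at 15 probes (0.577%) by edgeR, 7 higher (0.269%) and 8 lower (0.308%) under 1,4-DCB, and 325 (12.5%) at an unadjusted p under 0.05, a split of 8 and 5 under upper-quartile scaling. Of these 15, 5 also had a called isomer difference, Sult3a1 and a second probe of Cyp3a11 among them. Afp, with a median of 12.1 CPM in the 1,2-DCB controls and 4.45 CPM in the 1,4-DCB controls, was not among the 15 (-1.24, adjusted p = 0.087). The exposed animals compared directly, with no subtraction, gave 951 called probes.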

How the data were processed

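Raw counts per probe were deposited by the authors as 1 table of 3154 probes (2759 gene names) over 360 libraries from 5 tissues; reads were aligned with Bowtie 1.3.1, per the submitters' processing notes, and the build is not given in the sources used here. In the deposited counts, 59 probes are whole multiples of factors from 2 to 21, which are taken as factors applied to the probes although no label states them, so probes of different genes are not comparable in level, and between 58.4% and 65.3% of a library's counts lie on them; comparisons between animals within a probe are unaffected by a shared factor. Total counts per library were 14.1 to 37.7 M, and the 10 highest probes took 37.1% to 45.4%. Each of the 78 library pairs within a group differed by more than counting noise (chi-square over its degrees of freedom at least 40.5).

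The 61 used liver libraries, in 12 groups, were fitted together with edgeR 4.0.16 in R 4.3.3 (TMM scaling, filterByExpr, quasi-likelihood test), which left 2601 probes. Every adjusted p and every call is from this test with Benjamini-Hochberg adjustment over those probes at 0.05, errors are standard errors of log2 values, and intervals are at 95%. CPM values are scaled by the TMM library size. Each library is 1 animal, so p-values measure the spread between animals. The test was checked on simulated counts. Alternatives were DESeq2 1.42.0, RLE and upper-quartile scaling, no filter on low counts, all liver libraries, only the groups compared, factors undone, the clock gene Dbp as a covariate, no subtraction of controls, and each animal left out. A fit with the animal number as a block was added after seeing the data.

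The members and the 24 pathway and 14 cell type lists were chosen with earlier results of these data known. Named genes were the 10 largest called differences each way with a mean of at least 20 counts, 3 per list, the opposite and shared changes and fixed genes of metabolism. Probes of near-identical genes (Mup, Gsta, globin and Ugt1a families) can draw reads from one another, so a single member's value is uncertain. Promoter windows are from RefSeq. Results for some genes named by this rule are not reported here.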

Additional observations from a re-analysis of the deposited data

Results flagged for a closer look

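Dixon's criterion gives about 1 in 20 for independent normal values. Here it was applied to untransformed CPM in sets that share animals, so that rate cannot be set against the share found. Of 248 sets of a named gene in a group, 27 (10.9%), in 25 genes, held 1 animal far from the others by this criterion. Control animal 4 of the 1,2-DCB series held 9 of these, each the highest of 9 CPM values: Ccr2 11.2 (next 4.43), Cd68 82.6, Cd74 1783, Chil3 1.69, Col1a1 25.4, G6pdx 24, Lcn2 2022 (next 205), Orm3 16.7 and S100a11 162 CPM. Control animal 5 of that series was the highest in 4 cell division genes, with Birc5 at 10.99, Ccnb1 at 3.18, Cdc20 at 14.7 and Nusap1 at 0.729 CPM. Among the other controls of 1,2-DCB, animal 10 was highest in Gm2083 (4194 CPM) and animal 7 in S100a6 (10.2 CPM). In the 1,4-DCB controls, animal 3 was highest in Ccr2 (6.597 CPM) and Cyp7a1 (148.3 CPM), animal 7 in Gstm3 (58.7 CPM) and animal 10 in Timp1 (2.02 CPM).

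At 250 ppm 1,2-DCB, animal 506R was highest in Rrm1 (388 CPM), Rrm2 (200.5 CPM) and Slc1a2 (1.75 CPM), animal 501 in Cyp1a1 (9.17 CPM), animal 508 in Mup13 (104 CPM) and animal 503 in Egfr (73.4 CPM), and animal 503 was lowest in Gnpda1 (24.2 CPM). At 150 ppm 1,4-DCB, animal 402 was highest in Lcn2 (208 CPM).

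An animal left out by the status label at each concentration held values beyond the controls of its series. At 250 ppm 1,2-DCB, animal 504, marked as not used, had 0.132 M counts. Its lowest value above 0 was 7.197 CPM, so its place beside the other animals is uncertain for genes of low level. Of 62 named genes, it was above all used controls in 22, below in 16 and within them in 24. It was below all 6 used animals of its concentration in 31. It had Gsta1 at 1375 CPM (controls up to 49.9) and Cyp2b10 at 194 CPM (controls up to 82.5), while its Mup19, 9997 CPM, was within the control range and above all 6 used animals. At 150 ppm 1,4-DCB, animal 403, marked as not used, was above the controls in 32, below in 12 and within them in 18 of the 62. It had Gsta1 at 3938 CPM (controls up to 116.8) and Cyp2b10 at 836 CPM (controls up to 102). These values were not tested.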

How the results depend on the processing

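The count of 673 called differences was 431 with all liver libraries, 398 of them among the 673. It was 596 to 691 with each animal left out, and stayed within 1.5 times under the other alternatives. The libraries marked as not used in the groups compared were shallow: 1,2-DCB control 9, animal 504 and 1,4-DCB controls 6, 8 and 9 held 0.0941 to 0.132 M counts. Animal 403 held 11.7 M. The part of this depth in the lost calls was not tested. With each animal left out, the share of probes called was 46.9% to 50.3% at 250 ppm 1,2-DCB, 3.58% (without animal 401) to 6.0% at 150 ppm 1,4-DCB and 14.2% to 19.5% at 400 against 250 ppm, and the calls were 7 to 18 at 150 against 100 ppm and 9 to 21 between the controls (9 without 1,4-DCB control animal 10). The 11 calls at 150 against 100 ppm became 24 with DESeq2, 0 with all liver libraries and 7 with only the groups compared. With 1 of 4 animals left out they were 7 (1,4-DCB controls 1 and 7, 404 at 150 ppm or 402 at 100 ppm), and 18 without 1,2-DCB control animal 4. The share of 17.2% at 400 against 250 ppm became 7.24% and the 15 control differences 1 with all liver libraries, and the latter 28 with DESeq2. The cause was not tested.

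Of 62 named genes, 46 kept their side of the threshold and direction under every alternative. With all liver libraries 9 calls were lost: Abcc4, Ces2a, Ces2c, Cyp1a2, Cyp3a11, Fabp1, Gnpda1, Gstm3 and Orm3. With only the groups compared Igf2bp2 and Lcn2 lost their call, and with no subtraction Abcc4 lost its call while Cyp2b10, Cyp2c29 and Cyp2c55 gained one. With all liver libraries, the probes called higher went from 11 to 4 for CAR and PXR targets, from 5 to 2 for bile acid genes, from 6 to 2 for acute phase genes and from 3 to 1 for PPARA targets and for endothelial genes. Of the 56 called, 53 were called with any 1 animal left out. Cyp2a5, with no called difference, changed sign with Dbp as a covariate (0.29), with no subtraction of controls (0.21) and without 1,4-DCB control animal 5 (0.14; the lowest value with an animal left out was -0.20), and Ephx1 with no subtraction (0.003). Animal numbers repeat between the controls of the isomers, between 100 ppm 1,2-DCB and 150 ppm 1,4-DCB and between 250 ppm 1,2-DCB and 400 ppm 1,4-DCB, so no block could be fitted at 150 against 250 ppm. Deviations of same-numbered animals correlated across probes at r from -0.054 to 0.124 in the controls. The range was 0.003 to 0.09 between 100 and 150 ppm and 0.03 to 0.081 between 250 and 400 ppm. Whether a shared number stands for anything the samples have in common was not tested. With the number as a replicate block, on the groups compared alone, there were 8 calls at 150 against 100 ppm and 1 between the controls, and the share called at 400 against 250 ppm was 5.32% (16.4% on those groups with no block). Of 14, 8 and 6 libraries with a shared number, 3, 4 and 4 correlated best with their own number in the controls, at 100 and 150 ppm and at 250 and 400 ppm. Depth limits low genes such as Pif1 and Chil3, which had 0 counts in some libraries.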

Other observations

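Further gene lists are given by their counts, beside the 13.9% of all probes that were lower and the 12% that were higher. Of 24 inflammation probes, 8 were lower and 1 higher, the lower ones including the chemokines Ccl3 (-3.83), Ccl4 (-2.43) and Ccl7 (-2.48) and the adhesion molecules Vcam1 (-1.13) and Icam1 (-0.56); 5 were lower without animal 503 or 507 of the 250 ppm group or animal 401 of the 150 ppm group. Of 18 unfolded protein response probes, 4 were higher, for Sel1l (0.51), Atf6 (0.80), Atf4 (0.38) and Herpud1 (0.82), and of 6 clock probes 2, Nfil3 (1.203) and Cry1 (0.85). Near or under the share over all probes were the interferon response, with 2 of 20 lower, the immediate early genes, with 1 of 14 higher (Klf4, 2.34), and mitochondrial respiration, with 1 of 11 higher (Sdha, 0.50).

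Of the lists for other tissues, 0 of 3 ovary and 0 of 2 heart muscle probes were called in edgeR. Of 3 pancreas acinar probes 1, the amylase Amy2a5, was lower (-6.37 ± 1.76, adjusted p = 0.004431), with a log2 rise of 6.18 at 250 ppm 1,2-DCB and a mean of 17.8 counts per library.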
